A study of Mus musculus with 16 samples.

Results

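The genes described here are 37 listed genes of the amino acid and unfolded protein stress response, of which 34 had a probe set that the platform annotation gives a single gene symbol. All 34 lay above the filter on low values and were among 13453 genes tested of 22180 with such a probe set. Pycr1 and Gdf15 had no probe set with a single symbol and the probe set of Slc6a9 is shared with another gene, so these 3 are not analysed here. Where a gene had several probe sets the brightest was used, which applied to Slc7a11 and Slc1a5.

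The study put RNA of cultured coronal suture cells from C57BL6 mice on 16 Affymetrix arrays. This suture joins the skull's frontal and parietal bones by fibrous tissue and grows new bone at its edges. The groups were Twist1+/- cells with thyroxine, Twist1+/- cells in control medium, wild-type cells with thyroxine and wild-type cells in control medium, each after 7 and after 3 days. Twist1 encodes a transcription factor of mesenchymal cells whose loss of a copy causes premature fusion of this suture, and thyroxine, a thyroid hormone, was given at 1 µM in DMEM, while control cells had DMEM without it. Each of the 8 groups held 2 arrays, 1 of female and 1 of male cells, and the cells came from litters of mixed genotype sorted by sex and genotype, which gave 4 cultures with 4 arrays each. How many animals entered a culture, the kind of Twist1 allele and whether wells were pooled could not be learned from the labels. Levels are the log2 values that the authors deposited, and all differences are on the log2 scale. A gene is called where limma's adjusted p is under 0.05. With 1 culture for each genotype and sex, p-values measure the spread between arrays or pairs of arrays, which may be technical, and not between animals.

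The cultures held mesenchymal RNA and also RNA of macrophages. The 4 arrays of the wild-type male culture differed from the rest. Over 15 macrophage markers, all above the filter, the mean log2 level at 7 days was 9.99 to 10.3 in that culture against 9.88 to 10.1 in the other 3 cultures, and 9.92 to 9.94 against 8.08 to 8.93 at 3 days. Over 12 markers of suture mesenchyme and osteoblasts, 11 of them above the filter, it was 8.25 to 8.34 against 8.83 to 9.14 at 7 days and 8.28 to 8.38 against 9.10 to 9.28 at 3 days. The osteoblast factor Sp7 lay below the filter on average, as did the endothelial markers Tek and Emcn and the epithelial markers Epcam and Krt14. The endothelial markers Pecam1 (4.19), Cdh5 (4.89) and Kdr (4.92) and the epithelial marker Cdh1 (5.45) lay above it. So did the skeletal muscle and neural markers measured, with Acta1 at 6.97 and Tubb3 at 6.85. Twist1 ran from 6.07 to 7.70 over the arrays and was not called between genotypes in control medium (0.22 ± 0.34, SE, adjusted p = 0.943 by limma). In bulk RNA, fewer cells of a type and less RNA per cell cannot be told apart.

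In the integrated stress response, kinases that sense missing amino acids, unfolded protein in the endoplasmic reticulum, viral RNA or lack of haem phosphorylate the translation factor eIF2 alpha. Bulk translation then drops while translation of Atf4 rises, and ATF4, with C/EBP partners, switches on genes for amino acid uptake, amino acid synthesis and feedback control. A separate arm of the unfolded protein response works through the membrane sensors IRE1, which splices Xbp1 RNA, and ATF6, and raises chaperones of the endoplasmic reticulum. Osteoblast lineage cells secrete much collagen, and ATF4 is known in them for its role in amino acid import and matrix production.

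ATF4 and C/EBP heterodimers bind a composite element. Promoters of 33 of the 37 genes were in the RefSeq table (GRCm38.p6), each with 250 bases before and 50 bases after the gene start, while Slc1a5, Aldh1l2, Slc7a3 and Hmox1 had no entry. The motif TGATGNAA, searched on both strands, was present in the promoters of 10 of these 33 genes, 30.3%, against 4.51% of all genes in the table. The genes were listed as linked to ATF4 or to stress of the endoplasmic reticulum. Such an excess can come from that choice and is no result of the arrays. Of the 10, Pycr1 has no level here. The windows of the other 9 genes are shown because they place the motif beside genes that differ between cultures below, and were chosen after their values were seen. Each window has 30 bases, read on the strand that carries the motif, with the motif in capitals:
Trib3, chr2:152344028-152344057, plus strand: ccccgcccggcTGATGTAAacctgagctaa
Chac1, chr2:119351038-119351067, minus strand: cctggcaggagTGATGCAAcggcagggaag
Nupr1, chr7:126625562-126625591, plus strand: caagccctgtcTGATGCAAtctggcccttt
Atf3, chr1:191183425-191183454, plus strand: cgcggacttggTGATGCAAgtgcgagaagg
Asns, chr6:7693214-7693243, minus strand: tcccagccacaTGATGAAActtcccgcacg
Slc1a4, chr11:20332699-20332728, plus strand: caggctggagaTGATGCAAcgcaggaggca
Slc7a11, chr3:50443661-50443690, minus strand: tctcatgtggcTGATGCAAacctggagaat
Slc7a11, chr3:50443642-50443671, plus strand: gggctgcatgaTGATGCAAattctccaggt
Herpud1, chr8:94386306-94386335, minus strand: ggggtgcgggcTGATGCAAcccgccgtggt
Vldlr, chr19:27216809-27216838, minus strand: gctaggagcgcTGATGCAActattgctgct

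The 2 windows of Slc7a11 lie on opposite strands and overlap. The motif of Asns starts 23 bases before the gene start and that of Vldlr 200 bases before it, whereas that of Trib3 lies 15 bases after it. All but one of the windows carry TGATGCAA or TGATGTAA, and that of Asns carries TGATGAAA. A match describes letters and not a bound site, and no array measured binding.

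The clearest pattern among these genes was a low level in the wild-type male culture. Of 34 genes, 24 were called lower and 2 higher there than in the other 3 cultures, against 15.2% of all genes tested called lower, 13.6% higher and 28.9% in either direction. The median difference was -0.36 over the 34 genes and -0.003 over all genes tested. The 4 wild-type male arrays lay entirely below the other 12 for 17 of the 34 genes, against 5.29% of all genes tested. In the same comparison 14 of 15 macrophage markers and 4 of 6 cell cycle markers were called higher, and 10 of 11 mesenchymal markers lower. This culture was examined because it was already known to stand apart, and as a single culture its genotype, sex and animals cannot be told apart.

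**Figure D1:**
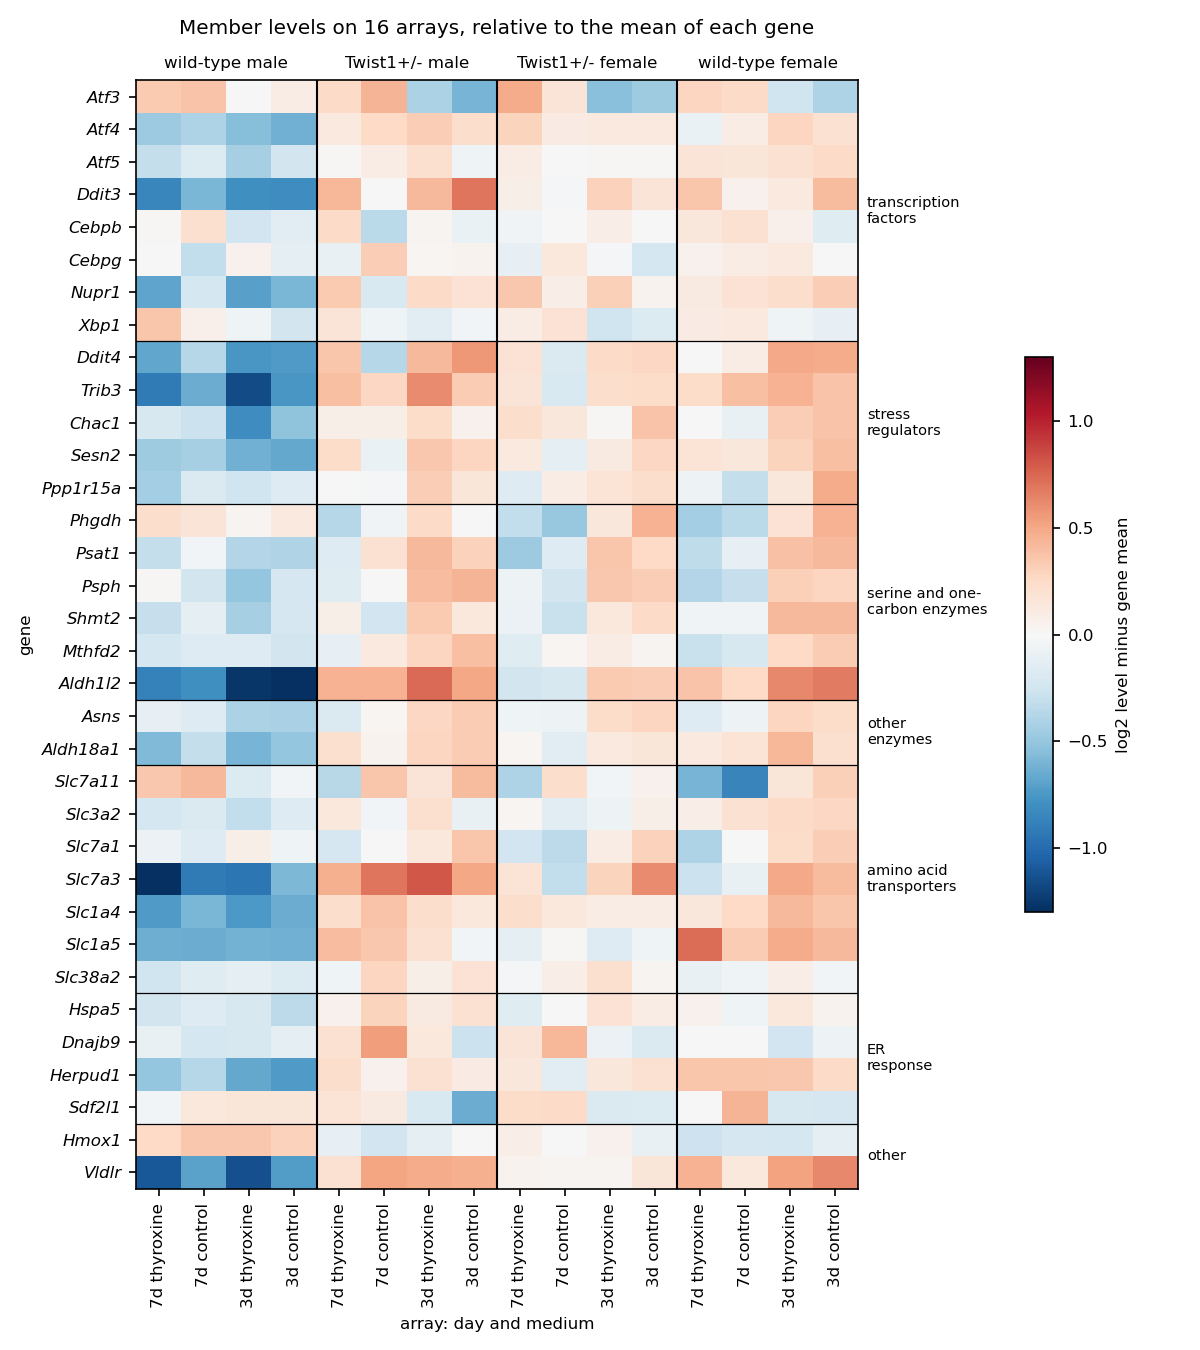
Log2 level of each gene on each of 16 arrays minus that gene's mean over all arrays, with wild-type male arrays at the left and genes in rows by role. Blue marks levels below the gene's mean and red levels above it, and the wild-type male columns are blue for Atf4, Ddit3, Trib3, Sesn2, Aldh1l2, Slc1a4, Slc1a5, Herpud1 and Vldlr.

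Among the transcription factors, Atf4 itself was low in the wild-type male culture. Its level was 7.83 with thyroxine and 7.90 in control medium at 7 days and 7.75 with thyroxine and 7.68 in control medium at 3 days. On the 12 arrays of the other cultures it had a lowest value of 8.22, a median of 8.47 and a highest value of 8.62. The groups did not overlap, and the difference was -0.69 ± 0.06 (SE, adjusted p = 3.82e-07 by limma). Ddit3 encodes CHOP, a factor tied to cell death under lasting stress. It stood at 6.24 with thyroxine and 6.49 in control medium at 7 days and at 6.29 and 6.28 in the same media at 3 days in the wild-type male culture, against 7.06, 7.32 and 7.78 as lowest, median and highest value elsewhere. The gap between the groups of Ddit3 arrays was wider than the spread within the wild-type male culture, and the difference was -1.01 ± 0.09 (SE, adjusted p = 6.64e-07 by limma). Atf5, a relative of Atf4, and Nupr1, a small stress-induced chromatin protein, were also called lower, by 0.39 and 0.74. Atf3, a factor that dampens or redirects stress transcription, was called higher by 0.27, while Cebpb and Cebpg, which encode partners of ATF4, and Xbp1 were not called, with differences of -0.06, -0.13 and 0.04.

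All 5 stress regulators were called lower in the wild-type male culture. Trib3 encodes a pseudokinase that feeds back on ATF4 and AKT. In that culture it was at 5.58 with thyroxine and 5.86 in control medium at 7 days and at 5.34 and 5.75 at 3 days, and on the other 12 arrays its lowest, median and highest values were 6.30, 6.80 and 7.12. No array of the other cultures reached down to the wild-type male ones, and Trib3 differed by -1.16 ± 0.10 (SE, adjusted p = 2.01e-07 by limma). Sesn2, a leucine sensor that restrains mTORC1, was at 7.86 with thyroxine and 7.89 in control medium at 7 days and at 7.70 and 7.66 at 3 days, against 8.19, 8.53 and 8.71 as lowest, median and highest value elsewhere. The Sesn2 arrays did not overlap and the difference was -0.72 ± 0.07 (SE, adjusted p = 7.07e-07 by limma). Ddit4, another inhibitor of mTORC1 signalling, was lower by 0.85, Chac1, which degrades glutathione, by 0.60, and Ppp1r15a, the phosphatase subunit that reverses eIF2 alpha phosphorylation, by 0.35. Arrays of Ddit4 and Ppp1r15a overlapped between the groups.

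Of the serine and one-carbon enzymes, 5 of 6 were called lower, and Aldh1l2 had the smallest p of all 34 genes. Aldh1l2 encodes the mitochondrial enzyme that releases formyl groups from folate. Its level in the wild-type male culture was 6.21 with thyroxine and 6.30 in control medium at 7 days and 5.83 and 5.76 at 3 days, and on the other 12 arrays it ran from 6.85 through a median of 7.50 to 7.83. The groups did not overlap, and the difference was -1.42 ± 0.06 (SE, adjusted p = 1.81e-10 by limma), or 0.373-fold. Psat1 and Psph, which carry out the later steps of serine synthesis from a glycolytic intermediate, and Shmt2 and Mthfd2, which run the mitochondrial folate cycle, differed by -0.37, -0.32, -0.36 and -0.26 over both days. These 4 genes were called at 3 days, with differences of -0.74, -0.71, -0.61 and -0.43, and not at 7 days, with 0.00, 0.08, -0.11 and -0.10. Aldh1l2 was called on each day, with -1.02 at 7 days and -1.83 at 3 days. Phgdh, which catalyses the entry step of serine synthesis, was not called over both days. Aldh18a1, which starts proline synthesis, was at 8.42 with thyroxine and 8.68 in control medium at 7 days and at 8.38 and 8.49 at 3 days, against 8.85, 9.16 and 9.42 as lowest, median and highest value elsewhere, without overlap. Its difference of -0.66 was called, as was that of -0.37 of Asns, asparagine synthetase. Asns differed by -0.69 at 3 days, which was called, and by -0.05 at 7 days, which was not.

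Amino acid transporters split into 5 called lower and 2 not called. Slc1a4, a carrier of alanine, serine and cysteine, was at 7.24 with thyroxine and 7.39 in control medium at 7 days and at 7.23 and 7.34 at 3 days, and the other 12 arrays ran from 8.08 through a median of 8.21 to 8.40. Its difference was -0.91 ± 0.06 (SE, adjusted p = 1.26e-08 by limma), without overlap. Slc1a5, a glutamine carrier of the same family, was nearly constant in the wild-type male culture, at 6.94 with thyroxine and 6.93 in control medium at 7 days and at 6.96 and 6.95 at 3 days. Elsewhere its lowest, median and highest values were 7.41, 7.85 and 8.30, and the difference was -0.85 ± 0.07 (SE, adjusted p = 2.43e-07 by limma). Slc7a3, a carrier of arginine and lysine and the dimmest of the 34 genes, was at 3.25 with thyroxine and 3.66 in control medium at 7 days and at 3.64 and 3.99 at 3 days. On the other arrays it ran from 4.26 through a median of 5.02 to 5.39. In the wild-type male culture 3 of the 4 values and the mean of 3.64 lay under the floor of 3.905 used to filter genes, so that Slc7a3 passed the filter through the other cultures and its difference has no settled size. Without it, a count added after the values were seen, 23 of 33 genes were called lower in the wild-type male culture and 16 lay entirely below the other arrays. Slc3a2, the shared heavy chain of several amino acid exchangers, and Slc38a2, a sodium-coupled carrier of neutral amino acids, were lower by 0.30 and 0.24. The cystine carrier Slc7a11 and the arginine carrier Slc7a1 were not called.

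Of the genes of the endoplasmic reticulum, Herpud1 and Hspa5 were called lower and Dnajb9 and Sdf2l1 were not. Herpud1 encodes a membrane protein that helps clear misfolded proteins, and it was at 8.49 with thyroxine and 8.62 in control medium at 7 days and at 8.32 and 8.25 at 3 days. Its values on the other 12 arrays ran from 8.85 through a median of 9.19 to 9.35, and the difference was -0.76 ± 0.06 (SE, adjusted p = 1.11e-07 by limma). Hspa5, the chaperone BiP, differed by -0.32. Its promoter was the only one of these genes with the ER stress element (CCAAT, 9 bases, CCACG, searched on both strands), which 0.137% of all genes in the table carry. It is shown, chosen after its values were seen, with the element in capitals, 65 bases before the gene start:
Hspa5, chr2:34771840-34772139, plus strand: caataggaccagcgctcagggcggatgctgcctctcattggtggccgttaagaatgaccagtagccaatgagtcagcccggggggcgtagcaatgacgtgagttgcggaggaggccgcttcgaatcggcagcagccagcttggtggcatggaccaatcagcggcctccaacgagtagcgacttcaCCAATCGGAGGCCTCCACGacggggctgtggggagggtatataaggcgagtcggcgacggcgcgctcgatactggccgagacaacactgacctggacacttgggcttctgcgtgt

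Hmox1 and Vldlr went opposite ways. Vldlr, a lipoprotein receptor raised by ATF4, was at 5.12 with thyroxine and 5.52 in control medium at 7 days and at 5.08 and 5.49 at 3 days in the wild-type male culture, against 6.25, 6.55 and 6.84 as lowest, median and highest value elsewhere. Its difference was -1.22 ± 0.09 (SE, adjusted p = 8.04e-08 by limma). Hmox1, which breaks down haem and answers to oxidative stress through NRF2, was at 11.44 with thyroxine and 11.53 in control medium at 7 days and at 11.53 and 11.48 at 3 days, above all other arrays, which ran from 10.91 through a median of 11.07 to 11.26. It was the only one of the 34 genes to lie entirely above, against 2.26% of all genes tested, and its values are given because of this. Hmox1 is also highly expressed in macrophages. Its difference between 7 and 3 days over all 4 cultures was -0.04 and not called. The part of macrophage content in its level was not tested.

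**Figure D2:**
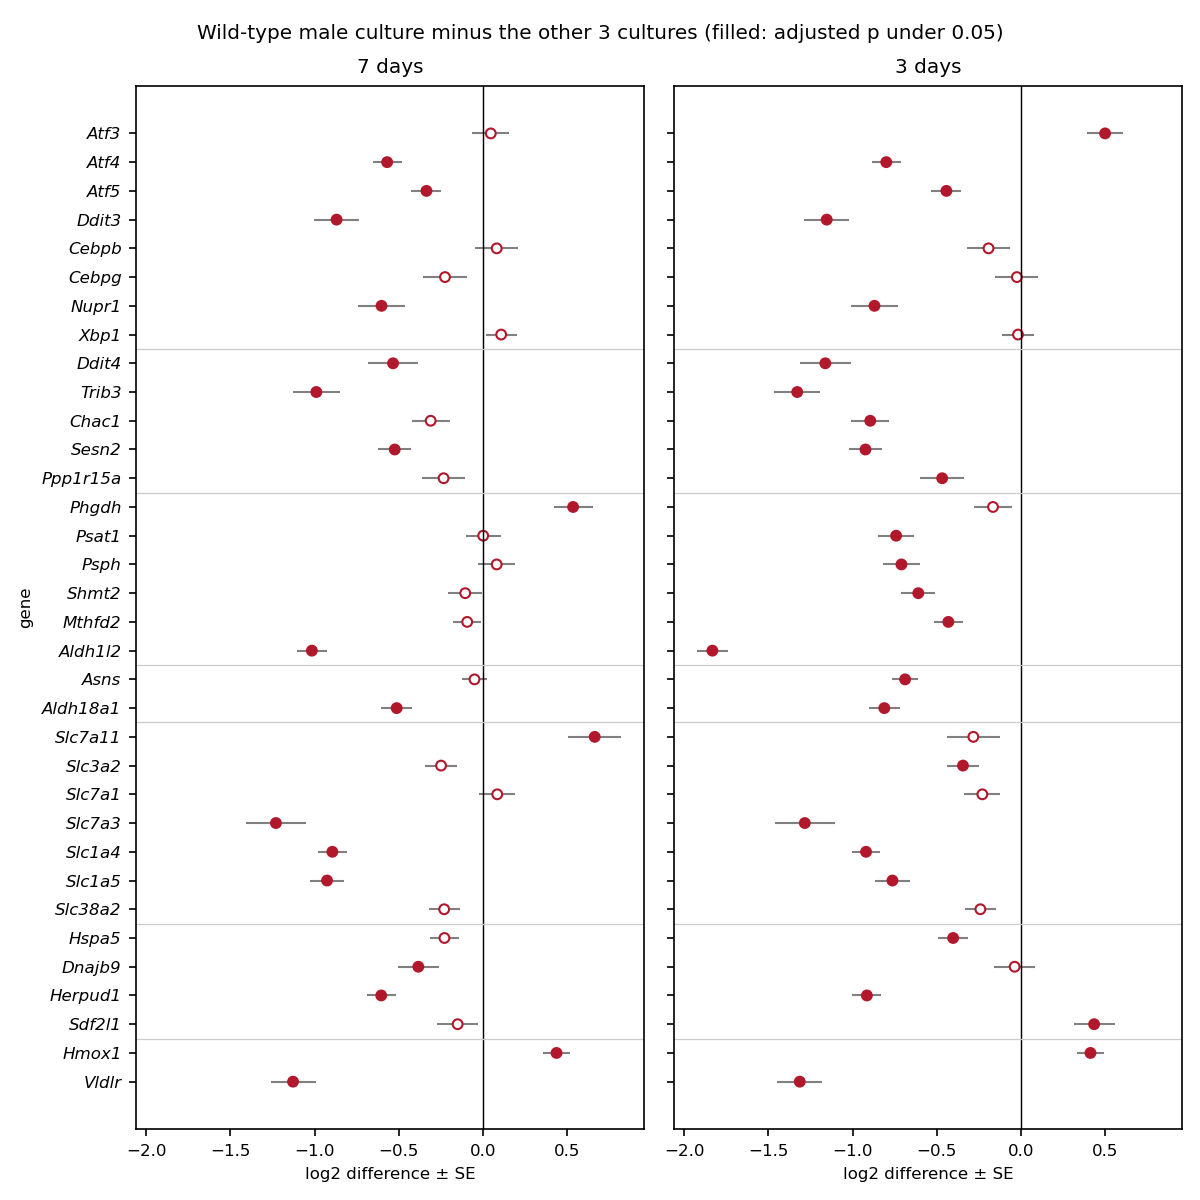
Difference of the wild-type male culture minus the other 3 cultures for each gene at 7 days (left) and 3 days (right), with bars of 1 SE and filled points where limma's adjusted p is under 0.05. Most points lie left of 0 on both days, and the serine enzymes and Asns lie near 0 or right of it at 7 days.

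The counts were taken for each day too. Called lower were 15 of 34 genes at 7 days and 23 at 3 days, and 3 were called higher on each day, against 16.7% of all genes tested called at 7 days (9.6% lower, 7.11% higher) and 22.6% at 3 days (12.3% lower, 10.3% higher). The genes called higher were Hmox1, Phgdh and Slc7a11 at 7 days and Hmox1, Atf3 and Sdf2l1 at 3 days. Phgdh and Slc7a11 were higher in the wild-type male culture by 0.53 and 0.66 at 7 days, and at 3 days their differences were -0.17 and -0.28 and not called. At 7 days the macrophage markers of the wild-type male culture overlapped those of the other cultures, and the mesenchymal markers did not. The part of cell composition in these differences was not tested.

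Against the wild-type female culture alone, the wild-type male culture had 22 genes lower and 2 higher, against 26.7% of all genes tested called (12.8% lower, 13.9% higher). Each of the other cultures was set against its remaining 3 in the same way, and in each of these the wild-type male culture was among the 3. The Twist1+/- female culture had no gene called at adjusted p under 0.05 in limma, against 3.76% of all genes tested. At an unadjusted p under 0.05 it had 5 of the 34 genes and 1933 of all 13453 genes tested. The Twist1+/- male culture had 12 called higher, against 4.77% of all genes tested called higher and 6.23% called in either direction. The wild-type female culture had 13 called higher and Hmox1 called lower, against 4.89% of all genes tested called higher, 5.95% lower and 10.8% in either direction. Called higher in both of these were Ddit3, Trib3, Sesn2, Aldh1l2, Aldh18a1, Slc1a4, Slc1a5 and Vldlr. The 2 comparisons share the wild-type male arrays.

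Other genes of the same pathways, from lists that leave out the 34 and counted over the genes tested, were compared in the same way, and their counts stand against 15.2% of all genes tested called lower and 13.6% higher. Of 17 further amino acid response genes, 12 were called lower in the wild-type male culture and 1 higher. The lower ones include Slc7a5, the carrier of large neutral amino acids (-0.80), Lonp1, a mitochondrial protease (-0.58), and Cth, which makes cysteine (-1.07). Of 16 cytosolic aminoacyl-tRNA synthetases, which load amino acids onto tRNA, 4 were called lower and none higher. They include Eprs (-0.64) and Lars (-0.53). Of 5 kinases and phosphatase parts that act on eIF2 alpha, Eif2ak2 (-0.75), which senses viral RNA, and Eif2ak3 (-0.44), the kinase PERK of the endoplasmic reticulum, were called lower. Of 25 further unfolded protein response genes 9 were called lower and 2 higher. The lower ones include the oxidase Ero1a (-0.67) and Sel1l (-0.41), a part of the degradation machinery. Of 9 further NRF2 targets and regulators 4 were called higher and 1 lower, and the higher ones were Gclm (0.58) and Gclc (0.51), which make glutathione, Txnrd1 (0.61) and Nqo1 (0.74).

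With time in culture 6 of these genes were called when all 4 cultures were fitted together, and not all of the 6 moved the same way in every culture. Between 7 and 3 days 4 of 34 genes were called higher and 2 lower, 6 in all, against 18.5% of all genes tested called (9.84% higher, 8.69% lower). The share called was close to that of all genes tested, but the count moved with the fit. The share over all genes tested moved too, and it is not given for centred arrays or for single arrays left out. With each array centred on its median of tested genes 4 genes were called higher and 7 lower. With the culture as a fixed block 4 were called higher and 9 lower, 13 in all, against 26.5% of all genes tested. Leaving out single arrays gave 4 genes (without the Twist1+/- female thyroxine array at 3 days) to 10 (without the wild-type male control array at 3 days). In the same comparison all 15 macrophage markers were called higher, with a median difference of 1.16, and the part of this shift in the differences below was not tested.

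Atf3 rose, with a higher mean at 7 days in each of the 4 cultures, and was the only one of the 34 genes whose arrays of the 2 days did not overlap, against 1.48% of all genes tested. Over 8 arrays a day, its lowest, median and highest levels were 6.81, 6.96 and 7.13 at 7 days and 6.04, 6.24 and 6.74 at 3 days. The difference was 0.65 ± 0.08 (SE, adjusted p = 0.000371 by limma), and it was positive in 8 of 8 sets of culture and medium, from 0.28 to 1.05. Its promoter holds the composite element, shown in capitals on the strand of the gene as TTGCATCA, 110 bases before the gene start:
Atf3, chr1:191183284-191183583, minus strand: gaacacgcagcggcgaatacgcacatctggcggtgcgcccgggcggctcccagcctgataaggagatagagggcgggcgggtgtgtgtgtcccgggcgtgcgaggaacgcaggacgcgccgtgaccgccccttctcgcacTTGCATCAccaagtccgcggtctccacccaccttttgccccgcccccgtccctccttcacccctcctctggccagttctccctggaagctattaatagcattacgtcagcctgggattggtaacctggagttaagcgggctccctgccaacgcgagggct

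The genes Sdf2l1, Dnajb9 and Xbp1, which belong to the branch of the unfolded protein response that IRE1 and ATF6 control, rose as well. Sdf2l1, a partner of BiP, had levels of 7.39, 7.58 and 7.86 (lowest, median and highest of 8 arrays) at 7 days and of 6.78, 7.23 and 7.58 at 3 days, a difference of 0.33 ± 0.09 (SE, adjusted p = 0.0204 by limma). It was higher at 7 days in 6 of 8 sets of culture and medium, and in the wild-type male culture it differed by -0.19 with thyroxine and -0.02 in control medium. Dnajb9, another cofactor of BiP, had levels of 7.76, 8.07 and 8.53 at 7 days and of 7.70, 7.84 and 8.12 at 3 days, a difference of 0.26 ± 0.06 (SE, adjusted p = 0.00878 by limma). Xbp1 had levels of 8.82, 8.99 and 9.23 at 7 days and of 8.61, 8.75 and 8.84 at 3 days, a difference of 0.27 ± 0.06 (SE, adjusted p = 0.0116 by limma). Dnajb9 and Xbp1 were each higher at 7 days in 7 of 8 sets. The days overlapped for all 3 genes. Hspa5 and Herpud1 were not called, with differences of -0.06 and 0.04, and probe sets do not tell spliced from unspliced Xbp1 RNA.

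Phgdh and Slc7a1 fell. Phgdh had levels of 7.13, 7.29 and 7.85 at 7 days and of 7.62, 7.79 and 8.08 at 3 days, a difference of -0.41 ± 0.12 (SE, adjusted p = 0.0329 by limma). It was not called when any of 10 single arrays, each taken alone, was left out. It was lower at 7 days in 6 of 8 sets of culture and medium, and in the wild-type male culture it differed by 0.19 with thyroxine and 0.04 in control medium. Slc7a1 had levels of 7.05, 7.27 and 7.45 at 7 days and of 7.40, 7.64 and 7.82 at 3 days. Its difference of -0.37 ± 0.08 (SE, adjusted p = 0.00719 by limma) was negative in 8 of 8 sets of culture and medium.

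The antioxidant response element TGACNNNGC, read on both strands, was present in 12 of the 40 promoters listed for these genes and in 12.4% of all promoters in the table. Among genes called between the days it is in Phgdh, Slc7a1 and Sdf2l1, and their promoters are shown with the match in capitals. All 3 matches lie on the other strand, so that the letters printed are the reverse complement of the motif. It lies 53 bases before the gene start in Phgdh, 11 in the Slc7a1 promoter shown, 1 of 2 listed for that gene, and 8 in Sdf2l1:
Phgdh, chr3:98339920-98340219, minus strand: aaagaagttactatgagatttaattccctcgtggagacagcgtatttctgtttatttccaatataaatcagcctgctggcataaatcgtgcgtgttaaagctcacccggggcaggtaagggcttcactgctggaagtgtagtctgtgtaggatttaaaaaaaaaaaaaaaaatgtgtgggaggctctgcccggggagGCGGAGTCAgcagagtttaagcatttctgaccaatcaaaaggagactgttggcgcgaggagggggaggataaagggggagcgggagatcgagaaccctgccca
Slc7a1, chr5:148399855-148400154, minus strand: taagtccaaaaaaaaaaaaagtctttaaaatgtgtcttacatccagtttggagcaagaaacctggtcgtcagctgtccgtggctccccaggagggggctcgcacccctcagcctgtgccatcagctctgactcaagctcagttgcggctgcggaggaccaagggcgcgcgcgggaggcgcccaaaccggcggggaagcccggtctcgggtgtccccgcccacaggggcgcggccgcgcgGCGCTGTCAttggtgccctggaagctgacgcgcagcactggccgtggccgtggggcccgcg
Sdf2l1, chr16:17132334-17132633, minus strand: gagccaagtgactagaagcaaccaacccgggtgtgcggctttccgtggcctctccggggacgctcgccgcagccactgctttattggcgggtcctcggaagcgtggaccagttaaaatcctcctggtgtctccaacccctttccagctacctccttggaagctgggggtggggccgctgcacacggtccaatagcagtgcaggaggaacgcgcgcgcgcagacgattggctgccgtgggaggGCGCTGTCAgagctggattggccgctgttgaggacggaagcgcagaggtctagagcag

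One of these 3 genes rose with time and 2 fell, so the genes that carry this match did not move one way.

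The count of changes with time depended on the wild-type male culture. Without it, 14 of 34 genes were called lower and 4 higher at 7 than at 3 days, against 26.1% of all genes tested called (14.2% lower, 11.9% higher), and the 6 genes named above were among the 18. All 6 serine and one-carbon enzymes were then called lower. Differences from this fit, here and below, weigh the genotypes alike, so the wild-type female culture counts as much as the Twist1+/- cultures together. They can differ from those of plain means, which for Slc7a11 were 5.70 at 7 days and 6.15 at 3 days. In these 3 cultures Psat1 had levels of 7.47, 7.77 and 8.14 (lowest, median and highest of 6 arrays) at 7 days and of 8.20, 8.31 and 8.36 at 3 days. Psph had levels of 6.22, 6.40 and 6.60 at 7 days and of 6.88, 6.94 and 7.04 at 3 days. In these 3 cultures the days did not overlap for several of the 34 genes, among them Asns, Phgdh and Slc7a1. The share of all genes tested without such overlap was not counted. Nor did the days overlap for Psat1 and Psph. Their differences were -0.55 ± 0.07 and -0.56 ± 0.08 (SE, adjusted p = 0.000137 and 0.000237 by limma). Phgdh, Shmt2, Mthfd2 and Aldh1l2 differed by -0.62, -0.41, -0.38 and -0.35. Asns, with 9.0, 9.12 and 9.22 at 7 days and 9.43, 9.47 and 9.52 at 3 days, differed by -0.37 ± 0.06 (SE, adjusted p = 0.00115 by limma). Slc7a11 (-0.58), Slc7a1 (-0.45), Slc7a3 (-0.47), Aldh18a1 (-0.18), Ddit4 (-0.41), Ppp1r15a (-0.38) and Sesn2 (-0.20) made up the rest of the lower genes. Atf4 (-0.12), Ddit3 (-0.17) and Trib3 (-0.15) were not called. The 15 macrophage markers were all called higher here too, with a median difference of 1.44.

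In the same 3 cultures, 14 of 16 aminoacyl-tRNA synthetases were called lower at 7 days, among them Tars (-0.67), Lars (-0.61), Eprs (-0.58) and Hars (-0.50). Against 14.2% of all genes tested called lower and 11.9% higher, 9 of 17 further amino acid response genes were lower, including Bcat1 (-0.60), which breaks down branched-chain amino acids, and 1 was higher. Of 9 further serine and one-carbon enzymes 4 were lower, with the cytosolic folate enzyme Mthfd1 at -0.58 and its mitochondrial relative Mthfd1l at -0.58, and 2 were higher. Among 6 cell cycle markers Mki67 (-0.67) and Top2a (-0.25) were lower.

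**Figure D3:**
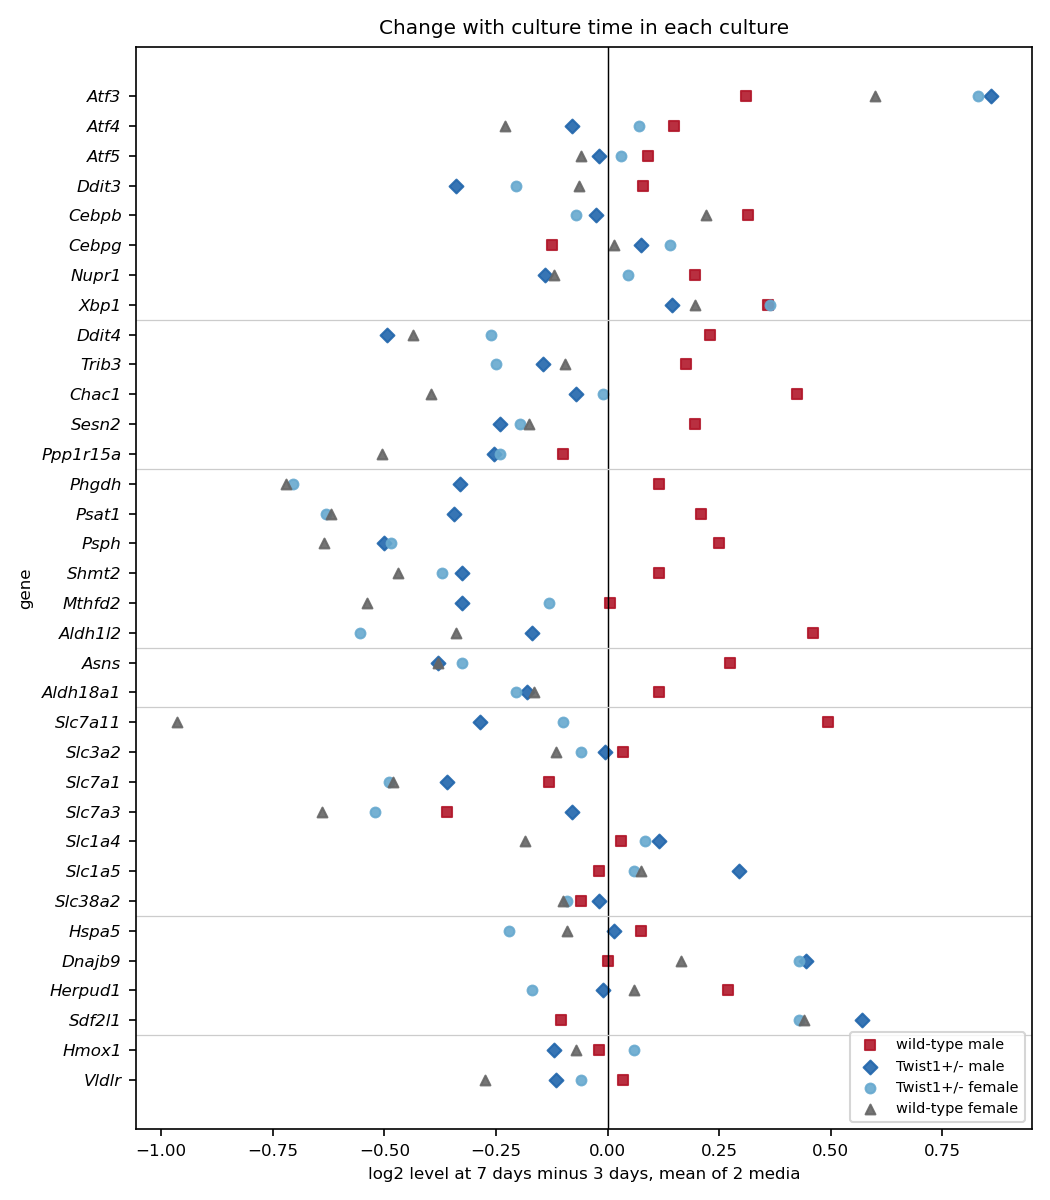
Mean log2 level at 7 days minus 3 days over both media for each gene in each of 4 cultures. The wild-type male squares lie to the right of the other cultures for the serine enzymes, Asns, Aldh1l2, Chac1 and Slc7a11, and to their left for Atf3 and Sdf2l1.

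The test of the difference itself, 7 minus 3 days in the wild-type male culture minus the same in the other cultures, called 7 of 34 genes, all higher, against 6.1% of all genes tested called (2.01% higher). Slc7a11 differed by 0.94 ± 0.22 (SE, adjusted p = 0.0167 by limma), Aldh1l2 by 0.81 ± 0.13 (adjusted p = 0.000996) and Psph by 0.79 ± 0.16 (adjusted p = 0.00551). Psat1, Phgdh, Asns and Chac1 differed by 0.74, 0.70, 0.64 and 0.58. In the wild-type male culture the level of Psat1 was 7.63 with thyroxine and 7.90 in control medium at 7 days, and 7.56 with thyroxine and 7.55 in control medium at 3 days. These levels at 3 days were below all 6 arrays of the other cultures at that time, and at 7 days they lay within their range. The count was 3 without either wild-type male thyroxine array and 4 without the wild-type male control array at 3 days. The share of all genes tested that was called in those fits is not given. The lower counts therefore cannot be read as particular to these genes. Within the wild-type male culture alone no gene of the 34 was called between the days by limma. At an unadjusted p under 0.05 were 7 of them and 1219 of all genes tested, and 0.431% of all genes tested were called. Taken singly, the Twist1+/- female culture had 8 genes called (14.1% of all genes tested), the Twist1+/- male culture 4 (11.3%) and the wild-type female culture 10 (12.6%). Over both Twist1+/- cultures 4 genes were called (14.6%), and over both wild-type cultures 0 by limma, with 5 at an unadjusted p under 0.05 (0.111% of all genes tested called, and 2212 at an unadjusted p under 0.05). No gene was called for a difference of the day effect between genotypes, and 0 of all genes tested were called. At an unadjusted p under 0.05 were 2 of the 34 and 1174 of all genes tested.

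Between genotypes in control medium none of the 34 genes was called by limma and no gene of all tested was called. At an unadjusted p under 0.05 were 3 of the 34 and 639 of all genes tested. Of the 34 genes 27 were higher in Twist1+/- cells, with a median difference of 0.20 against 0.04 over all genes tested. Atf4 averaged 8.48 ± 0.07 in Twist1+/- cells and 8.12 ± 0.39 in wild-type cells (SD, n = 4 arrays each), and Aldh1l2 averaged 7.36 ± 0.33 in Twist1+/- cells and 6.80 ± 0.93 in wild-type cells. The wild-type arrays spread more widely than the Twist1+/- arrays for both genes. Without the wild-type male culture the signs turned, and 24 of 34 genes were lower in Twist1+/- cells, with a median of -0.10. None was called in control medium (1.04% of all genes tested), and over both media Slc1a5 (-0.57, adjusted p = 0.00682 by limma) and Aldh1l2 (-0.43, adjusted p = 0.0438) were called lower, against 2.3% of all genes tested (1.14% lower). Sex is a term of that fit and no wild-type male arrays remain. The genotype difference therefore sets the Twist1+/- female culture against the wild-type female culture, 1 culture each. The Twist1+/- male arrays serve to fit the sex term.

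Thyroxine called none of the 34 genes over all 8 pairs of a thyroxine and a control array, against 0.0966% of all genes tested. At an unadjusted p under 0.05 were Slc7a11 and Psat1, 2 of the 34 genes, and 825 of all 13453 genes tested, which is a like share. The differences of the 34 genes ran from -0.23 to 0.08, with a median of -0.003. None was called in Twist1+/- cells (0.201% of all genes tested), in wild-type cells (0.0149%), for the difference between genotypes (0.0595%) or for the difference between days (0.00743%) by limma, with 3, 1, 5 and 1 of the 34 genes at an unadjusted p under 0.05. Of all genes tested 1397, 752, 1282 and 724 were under it in these comparisons. The 15 macrophage markers were not called over all pairs, with a median difference of -0.02.

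**Figure D4:**
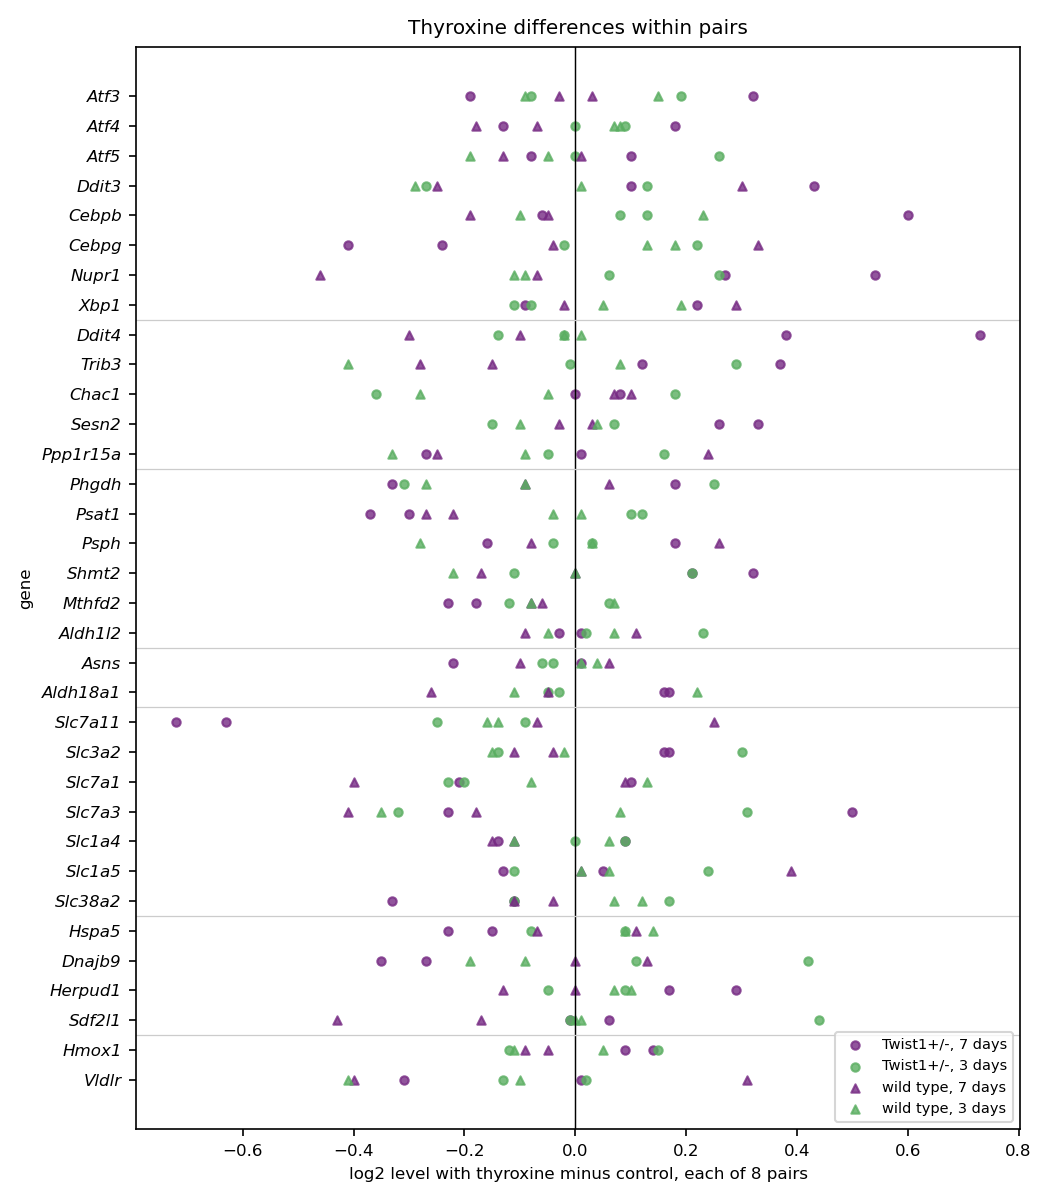
Log2 level with thyroxine minus control for each gene in each of 8 pairs of arrays of the same culture and day. Most points lie within 0.4 of 0 on both sides, the lowest 2 points are those of Slc7a11 in Twist1+/- cells at 7 days (-0.72 male, -0.63 female), and the highest single point is that of Ddit4 in Twist1+/- male cells at 7 days (0.73).

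At 7 days in Twist1+/- cells, a comparison added after the data were seen, Ddit4 was called higher and Slc7a11 lower, against 0.766% of all genes tested (0.439% higher, 0.327% lower). Ddit4 was at 7.59 in female and 7.76 in male cells with thyroxine, against 7.21 and 7.03 in control medium, a difference of 0.56 ± 0.12 (SE, adjusted p = 0.0494 by limma). Slc7a11 was at 5.57 in female and 5.62 in male cells with thyroxine, against 6.20 and 6.34 in control medium, a difference of -0.68 ± 0.14 (SE, adjusted p = 0.0454 by limma). These differences rest on 2 pairs. The media did not overlap for either gene, which adds no support because the genes were called on these same arrays. Both calls were lost without the wild-type male culture and without the pair block, without the Twist1+/- female or male pair at 7 days and without the wild-type female or male pair at 3 days. Ddit4 alone was lost without the wild-type female or male pair at 7 days. In the other 3 combinations of genotype and day no gene of the 34 and none of all tested was called. In wild-type cells at 7 days Ddit4 differed by -0.10 in female cells and -0.30 in male cells, and Slc7a11 by 0.25 and -0.07. The difference of the thyroxine effect between genotypes was fitted only as an average over both days. It was not called for either gene, and a difference at 7 days alone was not tested.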

How the data were processed

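The authors deposited log2 values for 41345 probe sets on 16 arrays, which, per the submitters' processing notes, came from Affymetrix Expression Console and RMA. The sources used here name no versions. Values ran from 0.57 to 14.05 and array medians from 3.73 to 3.86. The platform annotation gave 23521 probe sets 1 symbol, 1814 several and 16010 none. The brightest one-symbol probe set stood for each gene, and 13453 of 22180 genes had a mean above 3.905, the 40th percentile of one-symbol probe sets.

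Differences were fitted over all genes tested with limma 3.58.1 (R 4.3.3, eBayes with a variance trend) and adjusted by Benjamini-Hochberg, and the code was tested on simulated data. Thyroxine was fitted with the pair of arrays from the same culture and day as a block (4 residual degrees of freedom), since the labels put both media on 1 plate. The male minus female differences of the thyroxine and control arrays correlated across genes at 0.119 and 0.393 (Twist1+/-, 3 and 7 days) and 0.771 and 0.721 (wild type). Day and genotype were fitted on group means with sex and the culture as a random block (statmod 1.5.0, correlation 0.202), and cultures on culture by day means with medium. Alternatives changed the filter, the trend, the choice of probe set, the centring, the block and the arrays included. The number of arrays limits the precision.

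The genes, the pathway and marker lists and the comparisons of single cultures were chosen with earlier results of these data known. Genes are named with values on every array if called in a comparison, up to the 10 smallest adjusted p-values each, or if widest in range within a role. Genes outside the 37 are named from the lists where called, up to 4 for each list and comparison. Promoters printed whole are those of genes called between days with a motif match. Exceptions are stated.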

Additional observations from a re-analysis of the deposited data

Results flagged for a closer look

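For 7 genes the change between 7 and 3 days differed between the wild-type male culture and the other 3 cultures by limma's test of that difference, over 4 and 12 arrays. The values were 0.94 for Slc7a11, 0.81 for Aldh1l2, 0.79 for Psph, 0.74 for Psat1, 0.7 for Phgdh, 0.64 for Asns and 0.58 for Chac1. In the wild-type male culture itself no gene of the 34 was called between days by limma. At an unadjusted p under 0.05 were 7 of them and 1219 of all genes tested. The macrophage marker list had a smaller gap between the days in that culture (9.99 to 10.3 at 7 days, 9.92 to 9.94 at 3 days) than in the others (9.88 to 10.1 at 7 days, 8.08 to 8.93 at 3 days), and its part in these differences was not tested.

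A single value stood far from its group. Ppp1r15a differed between 7 and 3 days by -0.79 in wild-type female cells in control medium, whereas its other 7 differences lay between -0.35 and -0.02. Of 68 groups of 8 differences examined, 1 passed Dixon's critical value of 0.526, which chance passes in about 1 of 20 groups.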

How the results depend on the processing

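The count of 26 genes called in the wild-type male culture ran from 24 to 27 when single arrays were left out. Between the days 6 genes were called, against 10 with the filter at the 60th percentile, 11 with arrays centred on their median, 18 without the wild-type male culture, 13 with the culture as a fixed replicate block and 5 with no replicate block. Leaving out single arrays gave 4 (without the Twist1+/- female thyroxine array at 3 days) to 10 (without the wild-type male control array at 3 days). The count of 7 for the difference of the day change ran from 3 to 10 when single arrays were left out. Of the 2 genes called with thyroxine in Twist1+/- cells at 7 days, 0 were called without a filter, without a variance trend, without the wild-type male culture or with no replicate block, 1 with the mean of a gene's probe sets or with centred arrays, and 0 to 2 when single pairs were left out. For thyroxine over all pairs and in each genotype, for the differences of its effect between genotypes and days, for genotype in control medium and for the difference of the day change between genotypes, the count was 0 in the alternatives run. Psph in the wild-type male culture turned sign on the 7-day arrays alone (0.08). The share of all genes tested that was called moved between fits too, from 18.5% to 26.5% between days with the culture as a fixed block. It is not given for most of the counts above, so they cannot be read as a shift particular to these genes. The cause of these changes was not tested.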

Other observations

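Genes that answer to oxidative stress and heat shock were also compared between days in the 3 cultures other than the wild-type male one, where 26.1% of all genes tested were called, 14.2% lower and 11.9% higher. Of 9 NRF2 targets and regulators tested 5 were called lower and 1 higher at 7 than at 3 days by limma. The quinone reductase Nqo1 differed by -1.79 ± 0.09 (SE, adjusted p = 1.2e-07 by limma), and Gclc, which starts glutathione synthesis, by -0.56. Of 7 cytosolic heat shock genes tested 3 were called lower, and Hsph1, a cofactor of HSP70, differed by -0.81 ± 0.07 (SE). Nqo1 was also called lower with thyroxine in Twist1+/- cells at 7 days, by -0.68 (adjusted p = 0.0431 by limma). That comparison was added after the data were seen and rests on 2 pairs. Whether the call for Nqo1 holds in the alternative fits was not examined.

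Of 25 further unfolded protein response genes tested, 2 were called higher and 4 lower at 7 than at 3 days in these 3 cultures, a share near that of all genes tested. The oxidase Ero1b (0.64) and Edem1 (0.62), which helps extract misfolded glycoproteins, were higher, while the protein disulfide isomerase Pdia6 (-0.45) and the chaperone Hsp90b1 (-0.31) were lower. Over all 4 cultures 11 of 16 aminoacyl-tRNA synthetases were called lower at 7 days and none higher, against 8.69% of all genes tested called lower and 9.84% higher.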
